A study of Mus musculus with 11 samples.

Results

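Retinoic acid receptor alpha (RARα) carrying a Myc tag was profiled by CUT&RUN in mouse cortical progenitors. A set of tall peaks at gene ends in 1 of the 3 Foxc1 mutant libraries is described here. CUT&RUN uses an antibody to direct a nuclease to a chromatin protein and sequences the DNA that is released. Tall gene-end peaks were the peaks of mutant replicate 3 with a max signal between 16 and 25 that touched a window of 1 kb on either side of either end of a protein-coding gene. The limits were applied to that library alone, so the other libraries are not shown to lack such peaks. These limits gave 238 peaks at 285 genes, out of 22814 gene-end peaks and 513260 peaks in that library and 1106011 peaks in the lists of all 6 libraries. The height of the peaks in mutant replicate 3 and their closeness to a gene end chose them, so neither is a result.

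The libraries came from cortex of E14 embryos, from cells that magnetic beads had selected by Prom1, a membrane protein found on stem and progenitor cells of the nervous system. Foxc1 mutant embryos (3 libraries) were set against control embryos (3 libraries), and every library used here was made with an antibody to the Myc tag. Foxc1 encodes a forkhead transcription factor needed to form the meninges, a source of retinoic acid for the cortex. The mutant allele, the source of the tagged receptor and the promoter that drives it are not given in the labels, nothing says that the replicates came from separate embryos, and the 5 isotype antibody libraries were not analysed here. Values per peak are the authors' signal, and the number of reads behind them is unknown. Max signals within a library were whole multiples, within 0.01, of 1 unit, called a step here, which was worth 1.63 in mutant replicate 3, 0.147 in mutant replicate 1 and 0.450 in mutant replicate 2, with 0.0500, 0.168 and 0.333 in control replicates 1, 2 and 3, so heights are given in steps and are not compared as amounts between libraries. The lists held 513260, 54091 and 410453 peaks in mutant replicates 3, 1 and 2, while control replicates 1, 2 and 3 held 86444, 11709 and 30054. In such profiles, a smaller share of cells with the receptor bound and weaker binding in each cell cannot be told apart.

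RARα pairs with RXR receptors on direct repeats of a short half-site and switches nearby genes on when retinoic acid is bound. Most promoters of genes that every cell uses lie in CpG islands, stretches rich in the dinucleotide CG that are accessible in nearly all tissues. Promoters of tissue-restricted genes are often poor in CG.

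Promoter sequences of 9 genes at tall peaks are given first, because the results below turn on what they do and do not contain. All are RefSeq promoter windows of build GRCm38.p6, which reach from 250 bases before the annotated start to 50 bases after it and are written 5′ to 3′ on the strand of the gene. Dph5, needed to make the diphthamide residue of an elongation factor, and Ndufs6, a subunit of respiratory complex I, hold the 2 direct repeats with 1 base between half-sites (DR1) found under tall peaks, and Crbn, a ubiquitin ligase receptor, holds the single direct repeat with 2 bases between (DR2); capitals mark the repeat.
Dph5: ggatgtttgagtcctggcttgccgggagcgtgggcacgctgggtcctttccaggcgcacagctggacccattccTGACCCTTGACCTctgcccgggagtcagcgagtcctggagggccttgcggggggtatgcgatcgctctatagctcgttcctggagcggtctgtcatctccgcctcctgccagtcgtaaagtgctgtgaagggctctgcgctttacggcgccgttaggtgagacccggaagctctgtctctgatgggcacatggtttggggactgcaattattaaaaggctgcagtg
Ndufs6: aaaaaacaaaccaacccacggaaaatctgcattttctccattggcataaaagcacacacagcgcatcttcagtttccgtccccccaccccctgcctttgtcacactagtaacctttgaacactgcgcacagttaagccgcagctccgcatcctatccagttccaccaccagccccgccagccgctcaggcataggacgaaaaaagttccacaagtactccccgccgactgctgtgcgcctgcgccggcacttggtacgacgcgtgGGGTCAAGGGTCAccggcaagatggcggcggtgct
Crbn: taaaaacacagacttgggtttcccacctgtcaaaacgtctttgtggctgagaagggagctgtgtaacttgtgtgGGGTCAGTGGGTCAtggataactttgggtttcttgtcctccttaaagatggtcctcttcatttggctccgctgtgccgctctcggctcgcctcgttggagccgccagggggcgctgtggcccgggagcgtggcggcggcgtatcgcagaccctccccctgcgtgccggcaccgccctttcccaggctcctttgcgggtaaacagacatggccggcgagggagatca
The Dph5 window is chr3:115887933-115888232 on the plus strand, the Ndufs6 window chr13:73328433-73328732 on the minus strand and the Crbn window chr6:106800038-106800337 on the minus strand. All capital bases lie inside the peak.

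Tars, the threonine tRNA synthetase, and Pno1, an assembly factor of the small ribosomal subunit, hold the E-box CACGTG, in capitals. Psmd1 and Psmb6 encode proteasome subunits, and capitals in their windows mark the GC box GGGCGG on either strand.
Tars: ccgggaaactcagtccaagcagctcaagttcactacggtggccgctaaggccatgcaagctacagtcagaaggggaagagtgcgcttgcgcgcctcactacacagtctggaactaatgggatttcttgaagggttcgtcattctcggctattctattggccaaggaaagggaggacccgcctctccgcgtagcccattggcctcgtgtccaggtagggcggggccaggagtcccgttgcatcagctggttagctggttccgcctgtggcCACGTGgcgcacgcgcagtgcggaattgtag
Pno1: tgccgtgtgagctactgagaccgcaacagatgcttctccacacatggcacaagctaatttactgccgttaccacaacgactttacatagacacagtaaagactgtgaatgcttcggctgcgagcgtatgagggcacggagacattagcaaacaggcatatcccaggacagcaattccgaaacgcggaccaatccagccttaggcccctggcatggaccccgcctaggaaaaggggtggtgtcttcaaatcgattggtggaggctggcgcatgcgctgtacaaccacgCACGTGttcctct
Psmd1: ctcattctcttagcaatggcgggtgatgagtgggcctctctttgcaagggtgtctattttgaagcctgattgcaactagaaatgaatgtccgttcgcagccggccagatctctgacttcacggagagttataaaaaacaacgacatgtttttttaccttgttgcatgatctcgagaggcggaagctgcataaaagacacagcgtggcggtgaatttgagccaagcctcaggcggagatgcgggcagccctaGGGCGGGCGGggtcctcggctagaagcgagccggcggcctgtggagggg
Psmb6: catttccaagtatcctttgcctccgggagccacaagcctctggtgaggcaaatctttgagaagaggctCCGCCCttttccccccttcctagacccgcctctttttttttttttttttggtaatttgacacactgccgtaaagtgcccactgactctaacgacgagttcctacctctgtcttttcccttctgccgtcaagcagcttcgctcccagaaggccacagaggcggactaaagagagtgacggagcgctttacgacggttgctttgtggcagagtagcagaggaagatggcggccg
Their windows are chr15:11399609-11399908 (minus), chr11:17211540-17211839 (minus), chr1:86064369-86064668 (plus) and chr11:70525107-70525406 (plus).

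Tmem267, which encodes a transmembrane protein, and Mroh2a, of the maestro heat-like repeat family, show the contrast in CG content among the tall peaks that other libraries also held. Capitals mark every CG dinucleotide.
Tmem267: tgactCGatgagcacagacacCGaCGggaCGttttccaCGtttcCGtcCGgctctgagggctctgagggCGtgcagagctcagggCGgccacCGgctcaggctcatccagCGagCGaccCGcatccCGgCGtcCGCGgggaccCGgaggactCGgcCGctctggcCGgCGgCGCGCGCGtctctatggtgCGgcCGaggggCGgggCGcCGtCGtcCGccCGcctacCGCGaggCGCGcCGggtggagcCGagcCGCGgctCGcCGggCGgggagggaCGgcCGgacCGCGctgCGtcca
Mroh2a: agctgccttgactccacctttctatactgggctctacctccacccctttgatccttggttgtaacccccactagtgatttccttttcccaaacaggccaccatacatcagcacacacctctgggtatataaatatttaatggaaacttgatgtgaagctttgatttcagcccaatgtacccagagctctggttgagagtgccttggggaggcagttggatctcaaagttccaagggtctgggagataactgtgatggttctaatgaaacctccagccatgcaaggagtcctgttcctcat
The Tmem267 window, chr13:119488223-119488522 on the plus strand, has 50 CG dinucleotides, and the Mroh2a window, chr1:88226770-88227069 on the plus strand, has 0. The peak at Tmem267 began inside the window and held 19 of its 100 capital bases.

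Tall gene-end peaks sat at the 5′ ends of genes, and more than 50% of them covered an annotated start. Of the 203 peaks at a gene of known strand, 183 (90.1%, Wilson 95% interval 85.3 to 93.5%, for counting error only) touched a 5′ end, against 61.4% of all gene-end peaks of mutant replicate 3. An annotated start lay under 140 of the 238 peaks (58.8%), against 16.6% of all gene-end peaks. The rule took both ends of a gene alike, so the side is not fixed by the choice of peaks, but both sets come from the same library and no replicate test was possible. The centre of the stretch of max signal lay a median of 217 bp from the nearest annotated start at tall peaks and 2018 bp at lower gene-end peaks. Starts were known only for genes with a promoter window. Only genes without one were touched by 35 tall peaks (14.7%), against 19.2% of lower gene-end peaks. Those peaks could not count as over their own gene's start or, below, as at a pair of starts. Their distance ran to the start of another gene, and tall peaks on chromosome 18 had none. Within 500 bp of a start there were 144 tall peaks, of which 104 were centred upstream and 40 at or downstream of it, with a median of -60.25 bp. Fntb (farnesyltransferase beta subunit), Med6 (a Mediator subunit) and Sf3b1 (a core splicing factor) are examples, with 15, 14 and 10 steps and centres at -17.0, -12.5 and 57.5 bp from the start.

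**Figure D1:**
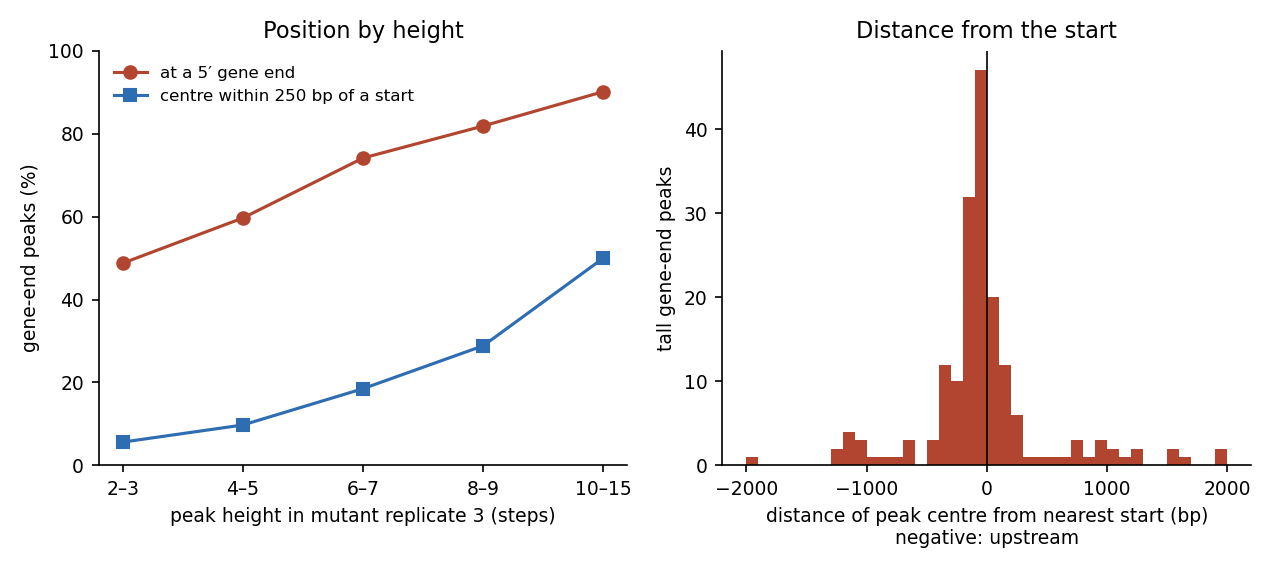
Left, the share of gene-end peaks of mutant replicate 3 at a 5′ end (of those with known strand) and with their centre within 250 bp of a start (of all), in percent, by peak height in steps. Right, the number of tall gene-end peaks by distance of their centre from the nearest start in bp. The 5′ share is 48.8% at 2 to 3 steps and 90.1% at 10 to 15 steps, and of the 144 centres within 500 bp of a start 104 lie upstream.

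The position changed by degrees with height rather than at the limit. From 2 to 3, 4 to 5, 6 to 7, 8 to 9 and 10 to 15 steps, the 5′ share was 48.8, 59.7, 74.1, 81.9 and 90.1%, and the share centred within 250 bp of a start was 5.60, 9.74, 18.5 and 28.8% in the lower classes and 119 of 238 among tall peaks. The share of all peaks of a height that lay at a gene end was 3.81, 4.16 and 5.68% in the lowest classes, 943 of 9431 at 8 to 9 steps and 20.5% at 10 to 15 steps, with 6 of 40 at 16 steps and over. Of the peaks of 10 to 15 steps, 925 lay away from gene ends. At the limits themselves, 124 members had the lowest height, 10 steps (max signal 16.3), and 280 gene-end peaks had 9 steps (14.7), among them Ube2l3, Hjurp, Zfp979 and the Ugt1a cluster. At the upper end 5 members had 15 steps (24.5): 4931408C20Rik, Elobl, Clasp1, Lrr1 and Fntb. Above it were 6 gene-end peaks, from 16 steps at Nup85 (26.1) to 112 steps at Brox (183).

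Tall peaks were broader and more often shared by neighbouring genes. Their median width was 1027 bp (269 to 8623 bp), against 764 bp for lower gene-end peaks. At 29 tall peaks (12.2%) the peak touched 5′ end windows of genes on both strands, against 4.02% of lower gene-end peaks. Pairs that read away from each other and pairs that overlap were counted alike. Such shared starts included Pno1 with Wdr92, Adat2 with Pex3, Hadha with Hadhb (the subunits of the mitochondrial trifunctional protein of fatty acid oxidation), Dpm1 with Mocs3 and Rpl35a with Iqcg. A peak at such a pair cannot be given to either gene. Only peaks at a 5′ end could count: 29 of 183 tall ones, against 908 of 11148 lower ones. The part of peak width in these counts was not tested.

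As many of the highest gene-end peaks were taken from each other library, out of 2159 and 15708 gene-end peaks in mutant replicates 1 and 2 and 6879, 295 and 772 in control replicates 1, 2 and 3. In control replicate 2 they are nearly the whole list, so the shares are given side by side and not as a difference in placement. The 238 highest gene-end peaks of mutant replicates 1 and 2 were at a 5′ end in 46.7 and 59.4% of cases with known strand, against 61.6, 46.2 and 41.6% in control replicates 1, 2 and 3. An annotated start lay under 6.72 and 19.7% of them in mutant replicates 1 and 2, whereas the controls (replicates 1, 2 and 3) had 23.9, 7.14 and 2.10%. Control replicate 1, whose list had 28.7% of all its gene-end peaks over a start, was the one library above mutant replicate 3 (16.6%) in that share. The step of mutant replicate 3 was the largest of the 6 and its list the longest, and the part of these in the shares was not tested.

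The promoters under tall peaks were rich in CG. RefSeq promoter windows could be matched to 237 of the 285 genes, and 199 windows of 180 genes lay under a tall peak, among 21045 windows in all. The ratio of observed to expected CG dinucleotides had a median of 0.855 in windows under tall peaks, 0.719 in windows under peaks of 2 to 9 steps, 0.451 in windows with no peak of mutant replicate 3 and 0.574 in all windows. A ratio of 0.6 or more was reached by 86.9% of windows under tall peaks and 48.1% of all windows, while the median GC content was close, at 58.3 and 56.7%. Across quartiles of the ratio, from the lowest to the highest, 0.0949, 0.362, 1.24 and 2.09% of windows lay under a tall peak. For peaks of any height the shares in the same order were 18.2, 26.7, 42.8 and 44.9% in mutant replicate 3, 2.24, 2.23, 1.90 and 1.90% in mutant replicate 1 and 17.8, 13.4, 13.6 and 13.6% in mutant replicate 2, against 10.5, 11.6, 16.9 and 18.5% in control replicate 1. Shares went up with CG content in mutant replicate 3 and control replicate 1, and did not in mutant replicates 1 and 2, so the pattern was seen in 1 library of each genotype. Control replicates 2 and 3 had peaks at under 1% of the windows in every quartile.

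**Figure D2:**
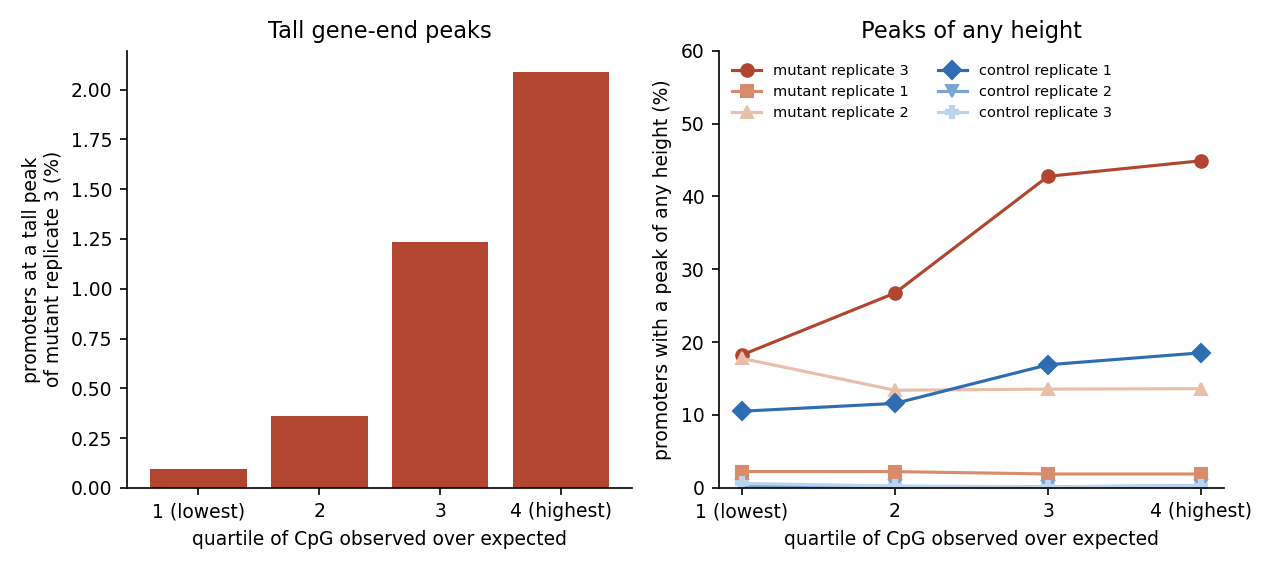
Promoter windows under a tall gene-end peak of mutant replicate 3 (left) and under a peak of any height in each library (right), in percent of the windows of each quartile of the CG observed over expected ratio. Tall peaks lie under 2.09% of windows in the highest quartile and 0.0949% in the lowest.

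Few windows under tall peaks held a retinoic acid response element. The half-site AGGTCA was found on either strand in 9.05% of windows under tall peaks and 14.6% of all windows, and the half-site AGTTCA in 11.6 and 12.4%. The order depended on the background: among windows with a CG ratio of 0.6 or more the shares were 7.51 and 9.39% for AGGTCA and 9.83 and 7.67% for AGTTCA. Direct repeats were searched on both strands with half-sites that could read A or G at base 1 and G or T at base 3. DR1 stood in 2 windows under tall peaks (1.01%, against 0.185% of all windows) and DR2 in 1 (0.503%, against 0.0903%), and these are the Dph5, Ndufs6 and Crbn windows given above. The spacing of 5 bases (DR5) stood in 0 of them, against 0.0808% of all windows. Counts this small carry no comparison, and a window without these letters says nothing of binding by the receptor.

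Sites of other factors were counted in the same way. The ETS site CCGGAAG was in 22.1% of windows under tall peaks and 11.7% of all windows, and the E-box CACGTG, read by Myc and Max among others, in 16.1 and 7.91%. Among windows with a CG ratio of 0.6 or more the same shares were 24.9 and 19.8% for CCGGAAG and 17.9 and 11.4% for CACGTG. The GC box GGGCGG, a site of Sp factors, was in 48.7% of windows under tall peaks and 46.7% of all windows, and among windows rich in CG in 53.2 and 74.2%, so the order turned round between the backgrounds. Shares were 33.2 and 38.5% for the CCAAT box (CCAAT), 9.55 and 12.7% for the TATA box (TATAAA), 4.52 and 3.03% for the forkhead site GTAAACA, 9.55 and 6.07% for the Rbpj site GTGGGAA and 21.1 and 16.8% for the Sox core ACAAAG. Among windows rich in CG they were 31.2 and 36.5% for CCAAT, 7.51 and 5.57% for TATAAA, 4.05 and 2.19% for GTAAACA, 9.83 and 5.37% for GTGGGAA and 20.2 and 10.9% for ACAAAG, so the order turned round for TATAAA too. Fixed versions of the Nrf1 site (1.01 and 1.34%) and the Yy1 site (1.51 and 0.893%) were rare in both, also among windows rich in CG (1.16 and 2.60%, and 1.73 and 1.75%). Each motif was counted once per window however often it occurred, and windows of 1 gene can overlap.

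The genes at tall peaks were counted over lists of gene families and pathways. Subunits of the proteasome, which degrades ubiquitin-tagged proteins, had the highest share of the 35 lists counted: 7 of 43 (16.3%), against 1.32% of all 21631 genes. In mutant replicate 3, Psmd3 had a peak of 12 steps, Psmd1, Psmd12 and Psmb6 had 11 and Psmc1, Psma1 and Psmd13 had 10. At Psmd1, a scaffold subunit of the regulatory cap, mutant replicate 2 had 4 steps and mutant replicate 1 no peak, against 12 steps in control replicate 1 and no peak in control replicates 2 and 3. Psmd12 had 3 steps in mutant replicate 2 and no peak in the other 4 libraries, and at the remaining 5 genes none of the other 5 libraries had a peak. Counted over the 238 highest gene-end peaks of each library, proteasome genes numbered 0 in mutant replicates 1 and 2, whereas the controls (replicates 1, 2 and 3) had 0, 0 and 1, where such peaks held 1.19 and 1.21% of all genes in the mutants and 1.31, 1.16 and 1.13% in the controls. With a gene-end peak of any height in mutant replicate 3, proteasome genes numbered 37 of 43 (86.0%), against 70.8% of all genes. In mutant replicates 1 and 2 they numbered 7 (16.3%) and 21 (48.8%), where all genes gave 10.4 and 57%; the counts in controls were 19 (44.2%), 0 and 2 (4.65%) for replicates 1, 2 and 3, where all genes gave 32.6, 1.44 and 3.68%. The Psmd13 peak also touched the end of Sirt3, a mitochondrial deacetylase.

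**Figure D3:**
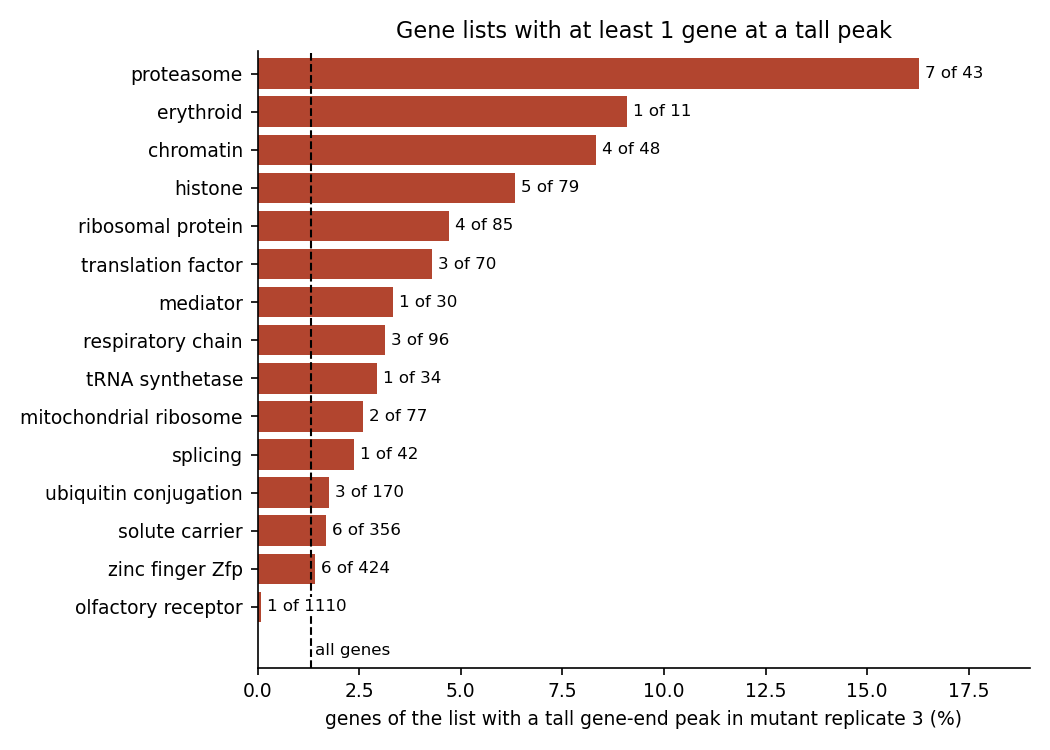
Percent of the genes of each list that had a tall gene-end peak in mutant replicate 3, for the 15 lists with at least 1 such gene, with the counts beside the bars. The dashed line is the share of all genes, 1.32%, and the proteasome list stands at 16.3%.

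Chromatin regulators gave 4 of 48 (8.33%). Eed, a subunit of the Polycomb repressive complex PRC2, had 11 steps in mutant replicate 3, no peak in mutant replicate 1 and 4 steps in mutant replicate 2, against 11 steps in control replicate 1 and no peak in control replicates 2 and 3. Chd2, a chromatin remodeller, and the histone H3 lysine methyltransferases Kmt2c and Setd1b had 10 steps each in mutant replicate 3, 5, 4 and 4 steps in mutant replicate 2 and no peak in mutant replicate 1 or any control. Histone genes gave 5 of 79 (6.33%): H3c13 with H2bc18 at 12 steps, and H1f4 and H2ac7 with H2bc7 at 10. The H3c13 place had 5 steps in mutant replicate 2, against 10 in control replicate 1, and H1f4 had 3 in mutant replicate 2. Histone genes have near-identical copies, and the placing of reads that fit several copies is not known here, so their peaks are uncertain.

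Genes of protein synthesis came next. Cytosolic ribosomal proteins gave 4 of 85 (4.71%) and translation factors 3 of 70 (4.29%). Mitochondrial ribosomal proteins gave 2 of 77 (2.60%) and tRNA synthetases 1 of 34, Tars. Among equally many highest gene-end peaks, cytosolic ribosomal proteins numbered 2 and 5 in mutant replicates 1 and 2. Control replicates 1, 2 and 3 had 4, 0 and 0. Mitochondrial ribosomal proteins numbered 2 and 2 in these mutants and 3, 0 and 0 in the controls. Translation factors and tRNA synthetases numbered 1 each in control replicate 1 and 0 elsewhere. Both ribosomal counts were thus at least as high in mutant replicate 2 and control replicate 1 as at tall peaks. The tRNA synthetase list did not hold Farsb, which encodes a subunit of the phenylalanine tRNA synthetase. Farsb had 11 steps in mutant replicate 3 and no peak in any other library. Rpl38 had 14 steps in mutant replicate 3 and no peak in mutant replicates 1 and 2, against 12 steps in control replicate 1 and no peak in control replicates 2 and 3. Rpl35a had 12 steps in mutant replicate 3 and 8 in mutant replicate 2, Rpl21 had 10 and 4 in mutant replicates 3 and 1, and Rpl3 had 10 and 4 in mutant replicates 3 and 2, with no peak in any control. Tars had 13 and 4 steps in mutant replicates 3 and 2, against 8 in control replicate 1. Eef1d, of the elongation factor complex, had 10 and 6 steps in mutant replicates 3 and 2, while Eif2s3x, a subunit of initiation factor eIF2, and Eif4enif1, which carries eIF4E into the nucleus, had 10 steps in mutant replicate 3 and no peak elsewhere.

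Mitochondrial genes included 3 of 96 (3.13%) of the respiratory chain. The ATP synthase subunit gene Atp5j2 had 10 and 4 steps in mutant replicates 3 and 2, against 14 in control replicate 1. Ndufs4, and Ndufs6 at a start shared with Mrpl36, had 11 steps in mutant replicate 3 and no peak in any other library. The phosphate carrier gene Slc25a3 had 11 and 6 steps in mutant replicates 3 and 2, and Slc25a23 had 12 in mutant replicate 3, against 8 in control replicate 1; both fell in the solute carrier list, 6 of 356 (1.69%). Dnm1l, a dynamin that divides mitochondria, had 11 and 6 steps in mutant replicates 3 and 2, against 12 in control replicate 1, and Hspa9, the mitochondrial Hsp70 chaperone, had 10 and 5, against 17.

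Remaining lists were near or below the share of all genes, or rested on 1 gene. The zinc finger Zfp genes gave 6 of 424 (1.42%), ubiquitin conjugation 3 of 170 (1.76%; Usp53, Fbxl12 and Fbxo8 with 12, 10 and 12 steps) and olfactory receptors 1 of 1110 (0.0901%; Olfr1130). Sf3b1 (1 of 42 splicing genes), Med6 (1 of 30 Mediator genes) and Tal1 (1 of 11 erythroid genes, a blood and endothelial transcription factor, 12 steps) were single cases. Lists of general cell genes with no member were housekeeping genes (0 of 24), RNA polymerase subunits (0 of 28), DNA repair (0 of 36) and cell cycle (0 of 35). These lists are short and leave out genes of their kind. The DNA repair genes Rad52 and Fancl had tall peaks of 11 and 12 steps. Nuf2, of the kinetochore, and Orc5, of the replication origin complex, had 12 and 10. The 0 counts therefore do not show that tall peaks avoid these functions. Both tall peaks on chromosome X, at Kdm5c (12 steps) and Eif2s3x, were in mutant replicate 3 only; they made up 0.840% of tall peaks and X held 2.65% of lower gene-end peaks, while chromosome 1 held 11.8 and 6.18%.

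The series title names retinoic acid, Notch and Sox2, and genes of these pathways had no tall gene-end peak. None was a member among 26 retinoic acid genes, 36 Notch genes, 19 Sox genes, 25 Wnt genes, 22 radial glia genes and 22 neurogenesis genes; at 1.32% of all genes, lists of this size hold few or none. Gene-end peaks of any height in mutant replicate 3 stood at 20 retinoic acid genes (76.9%), 25 Notch genes (69.4%), 9 Sox genes (47.4%), 21 Wnt genes (84.0%), 15 radial glia genes (68.2%) and 17 neurogenesis genes (77.3%), against 70.8% of all genes. Marker lists of meningeal fibroblasts (16 genes), vessels (14), microglia (8) and ventral interneurons (12) also had 0 members. Peaks do not measure expression, so these lists do not check the cell type. Among transcription factors of the cortex, chosen here after their values were seen, Nr2f1, a nuclear receptor that patterns cortical areas, had a tall peak 5015 bp wide with 11 steps in mutant replicate 3, 4 in mutant replicate 2 and no peak elsewhere, and Pou3f3, a factor of upper-layer neurons, had 12 steps in mutant replicate 3 at its 3′ end and no peak elsewhere.

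At the same places the number of peaks in the other libraries varied widely within each genotype. Any peak of at least 1 bp overlap stood at 20 of the 238 places in mutant replicate 1 (8.40%) and 98 in mutant replicate 2 (41.2%), against 56 in control replicate 1 (23.5%), 1 in control replicate 2 (0.420%) and 0 in control replicate 3. Over all gene-end peaks of mutant replicate 3 the shares were 3.91 and 27.1% in mutant replicates 1 and 2, whereas the controls (replicates 1, 2 and 3) had 17.7, 0.338 and 0.798%. Averaged by genotype, 24.8 ± 23.2% of places had a peak in mutant replicates 1 and 2 (SD, n = 2) and 7.98 ± 13.5% in controls (SD, n = 3). The difference of 16.8 percentage points was smaller than the SD among mutant libraries, and without mutant replicate 2 it was 0.420 points. An exact test of 2 libraries against 3 cannot go below p = 0.1 two-sided, so none is given. List length moved with the shares, mutant replicate 2 having the most peaks of these 5 libraries and control replicate 2 the fewest; with every list held to the 11709 peaks of highest total signal, the shares were 5.04 and 6.72% in mutant replicates 1 and 2, whereas the controls (replicates 1, 2 and 3) had 9.66, 0.420 and 0%, and the highest was then a control.

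**Figure D4:**
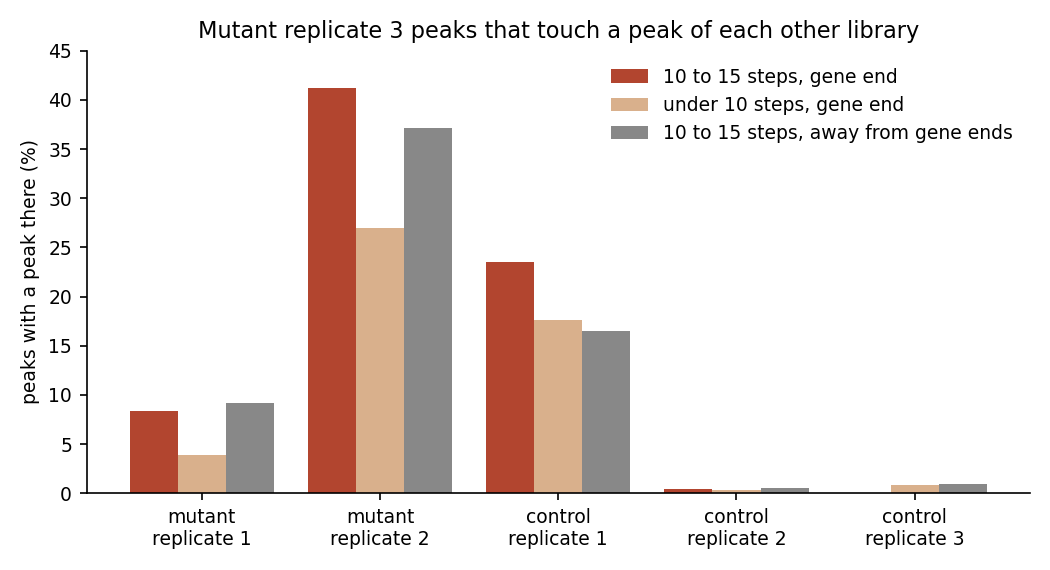
Percent of mutant replicate 3 peaks that touch a peak of each of the 5 other libraries, for tall gene-end peaks, lower gene-end peaks and peaks of 10 to 15 steps away from gene ends. Tall gene-end peaks stand at 41.2% in mutant replicate 2 and 23.5% in control replicate 1, and at or below 0.420% in control replicates 2 and 3.

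Tall peaks away from gene ends gave much the same shares: 9.19 and 37.2% in mutant replicates 1 and 2, whereas the controls (replicates 1, 2 and 3) had 16.5, 0.541 and 0.973%. As tall peaks are wider and a wide peak touches more, the shares were also taken over 500 bp around the centre of each peak. There they were 5.88 and 32.4% at tall gene-end peaks in mutant replicates 1 and 2, against 18.5% in control replicate 1, and at lower gene-end peaks 3.07 and 21.7%, against 15.9%. By height in mutant replicate 3, from 2 to 3 up to 10 to 15 steps, the share with a peak in mutant replicate 2 was 24.9, 26.0, 30.0, 35.7 and 41.2%, and in control replicate 1 it was 15.02, 17.0, 20.8, 23.4 and 23.5%. No other library had a peak at 103 of the 238 places (43.3%), against 58.1% of lower gene-end peaks. Just 1 other library had a peak at 96 places (40.3%, against 34.6% of lower gene-end peaks). Peaks in 2 other libraries stood at 38 places (15.97%, against 6.91%) and in 3 at 1 place (0.420%, against 0.372%).

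Where another library had a peak, its height was near the median of that library. Heights had a median of 4 steps (2 to 10) in mutant replicate 1 and 5 steps (2 to 16) in mutant replicate 2, against 10 steps (6 to 23) in control replicate 1, while the medians of the whole lists were 4, 4 and 10. The single peak in control replicate 2, at Asic5, an acid-sensing channel, had 2 steps, the median of that list. Of all genes, 1.32% were at a tall peak. Of the genes at the 238 highest gene-end peaks of each other library, 11 of 257 in mutant replicate 1 (4.28%, and 3.86% of the 285) and 22 of 262 in mutant replicate 2 (8.40 and 7.72%) were also at tall peaks of mutant replicate 3, against 8 of 283 in control replicate 1 (2.83 and 2.81%), 2 of 252 in control replicate 2 (0.794 and 0.702%) and 0 of 245 in control replicate 3. Genes were matched at either end here, so the peaks need not overlap. The highest peaks themselves touched 6 and 16 of the 238 places in mutant replicates 1 and 2. In control replicates 1, 2 and 3 they touched 2, 0 and 0.

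**Figure D5:**
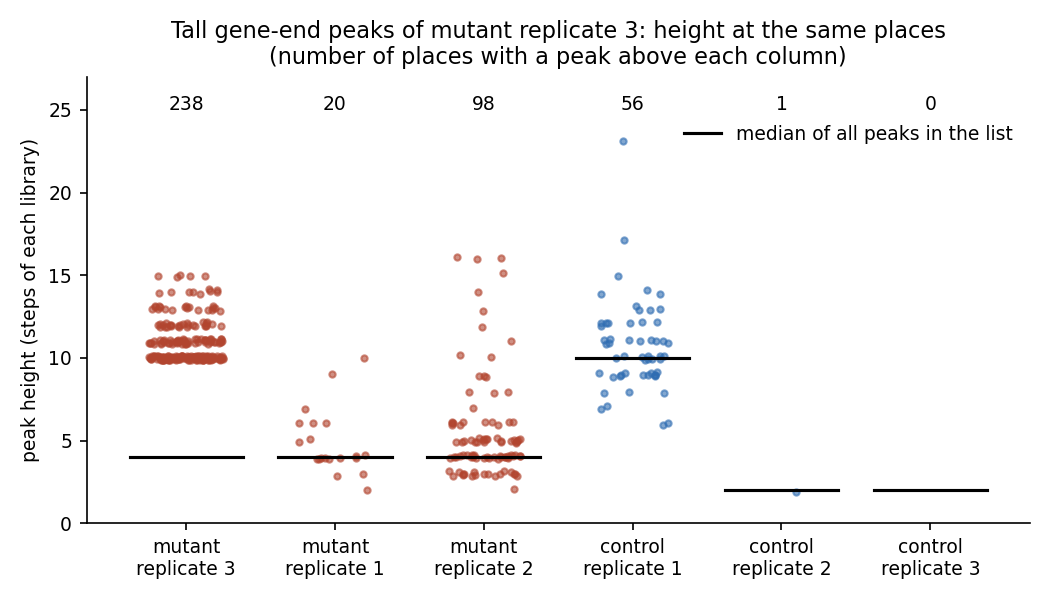
Height in steps of the peak at each of the 238 places, in each library, with the median height of all peaks of the list as a black bar and the number of places with a peak above each column. Heights in the other libraries scatter around their own medians of 4, 4, 10 and 2 steps, and steps are not the same amount of signal across libraries.

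Zfp810, a zinc finger gene, was the one place with a peak in 3 other libraries: 10, 4 and 6 steps in mutant replicates 3, 1 and 2, against 13 in control replicate 1 and no peak in control replicates 2 and 3. The peak lay at its 3′ end, at chr9:22275691-22276675. It was also the one tall place that could be fitted in a limma model of peak height across the 5 other libraries, where mutant replicates 1 and 2 minus control gave -0.09 on the log2 scale of max signal centred on each library (adjusted p = 0.9496 by limma). Control replicate 1 was the one control with a value there, so the fit set 2 libraries against 1 and assumed that the lone control varies like the other libraries. Of the 84 gene-end regions in that fit, 0 passed an adjusted p of 0.05 (percent called 0) and 15 had an unadjusted p under 0.05. The fit took regions with a peak in at least 3 of the 5 libraries and left missing values out.

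Both mutant replicates 1 and 2 had a peak, and no control did, at 11 places (4.62%), against 0.977% of all gene-end peaks of mutant replicate 3. The largest group of tall peaks within 100 kb of a neighbour held 5 and lay on chromosome 1, at chr1:88211162-88308765. These were at Ugt1a1 (the enzyme that conjugates bilirubin), Mroh2a at both of its ends, Hjurp (a centromere histone chaperone) and Trpm8 (the cold-sensing channel). The other such groups held 2 each, among them Sf3b1 with Hspe1 and Hspd1, also on chromosome 1. Ugt1a1 had 13, 7 and 16 steps in mutant replicates 3, 1 and 2, Mroh2a had 12, 6 and 16 at its 5′ end and 11, 4 and 10 at its 3′ end, and Trpm8 had 10, 4 and 16, with no peak in any control. Hjurp had 10 steps in mutant replicates 3 and 2 and no peak in the other libraries. These peaks were among the widest, 8623 bp at Trpm8, 7970 and 5682 bp at Mroh2a and 6482 bp at Ugt1a1.

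The other places were 4931408C20Rik with 15, 10 and 11 steps in mutant replicates 3, 1 and 2, Elobl with 15, 6 and 9, Slc30a4 (a zinc transporter) with 10, 9 and 13, Gm42346 with 10, 4 and 14, Smok2a (a sperm motility kinase) with 10, 4 and 9, Adat2 with Pex3 with 10, 4 and 5 and Ldah (a lipid droplet hydrolase) with 11, 3 and 5. The median width of the 11 places was 2494 bp, and 2204 bp over the 7 outside the chromosome 1 stretch. A promoter window stood at 6 of the 11. The CG ratio was 0.130 at Ugt1a1, 0.0690 at Trpm8 and 0 at Mroh2a, all from that stretch. It was 0 at 4931408C20Rik, 0.904 at Adat2 with Pex3 and 0.948 at Ldah. The CG content of these 6 was thus mixed, and 3 of them lay outside the stretch. For the remaining places it is not known. The 56 places with a peak in control replicate 1 had a median CG ratio of 0.788 over 39 with a promoter window and a median width of 1096 bp, and the 103 places with no peak elsewhere 0.867 over 74 and 831 bp. These groups were picked by the presence of peaks and that of 11 is small, so the values are descriptions with no test. Several of these genes belong to families of near copies, and the handling of reads that fit several places is not known here.

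Places shared by control replicate 1 and mutant replicate 2 numbered 24 (10.1%), and control replicate 1 and mutant replicate 1 shared 5 (2.10%). Taken singly, control replicate 1 and mutant replicates 2 and 1 had a peak at 56, 98 and 20 of the 238 places. The same pairs were not counted over all gene-end peaks, so the shared numbers are not read as high or low. Tmem267 had 13, 0 and 12 steps in mutant replicates 3, 1 and 2, against 23 in control replicate 1, the highest there, where 0 stands for no peak. Cltc, the clathrin heavy chain, had 14 and 5 steps in mutant replicates 3 and 2, against 14 in control replicate 1. Pno1 with Wdr92 had 11 and 9, against 15, and St13, an Hsp70 partner, with Xpnpep3 had 14 and 6, against 10. Sar1b, a GTPase of vesicle budding, had 10 and 5 steps in mutant replicates 3 and 2, against 12 in control replicate 1, and Dnajc9, a histone chaperone partner, had 10 and 4, against 13. Rpp30, a subunit of RNase P, had 12 and 5 steps in mutant replicates 3 and 1, against 14 in control replicate 1. In each of these, control replicates 2 and 3 had no peak. Mutant replicate 1 or 2 and no control had a peak at 78 places (32.8%), against 23.4% of all gene-end peaks of mutant replicate 3, a control and neither mutant at 29 (12.2%, against 12.3%), and both genotypes at 28 (11.8%, against 6.28%). Mutant replicate 2, with 410453 peaks, had a peak at 98 of the 238 places and mutant replicate 1 at 20, so the first count came mostly from mutant replicate 2. The part of list length in that count was not tested.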

How the data were processed

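Peak lists of 6 Myc-tag CUT&RUN libraries were used, grouped by their titles. SEACR and mm10 are named in the submitters' processing notes. No SEACR version or setting, aligner, read filter or scaling is given in the sources used here. Each deposited peak carries a total signal and a max signal, as the authors' values. Peaks were called per library, and 544 peaks off chromosomes 1 to 19 and X were left out. The depth is unknown, so a place without a peak is not shown to be unbound. Genes and promoter windows came from RefSeq tables of GRCm38.p6, the assembly behind mm10; the strand was known for 17274 of 21631 genes. Overlap counted from 1 bp. Counts were made with Python 3.11.15, pandas 2.3.3 and numpy 2.4.6. The planned limma fit (limma 3.58.1, R 4.3.3) needed a peak in all 5 other libraries and had 0 regions, so a fit on at least 3 libraries was added. The limma code was tried on simulated data without missing values, which does not check the added fit. Replicates are separate samples by label only, so its p-values may measure technical spread.

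The peaks, gene lists and tests were chosen with earlier results of these data known, and the histone name pattern, the motifs, the promoters printed and the subsets of places were chosen after the data were seen. Genes named by rule were the 20 members with a peak in most other libraries, up to 4 of each list, those nearest the limits and 5 at shared starts. Others were named by no set rule, among them Rad52, Fancl, Nuf2, Orc5, Farsb, Kdm5c, Asic5, Psmc1, Psma1 and Psmd13. Naming members by limma p could not be applied, since 1 member was fitted. Alternatives tried were other overlaps, gene-end windows, height limits and list lengths, and leaving out each library.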

Additional observations from a re-analysis of the deposited data

How the results depend on the processing

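The share of the 238 places with a peak depended on the overlap and the list length. In mutant replicate 2 it was 41.2%, and 21.0% when 50% of the place had to be covered, 23.5% with only peaks of total signal above the median of the list and 6.72% with lists of equal length. In mutant replicate 1 it was 8.40%, and 3.78% with 50% covered and 5.04% with equal lengths, while in control replicate 1 it was 23.5%, and 9.66% with equal lengths. The SD between libraries, 23.2 points in mutants and 13.5 in controls, is too wide a yardstick to call these shares stable. The difference of mutant replicates 1 and 2 minus control, 16.8 percentage points, ranged from 0.420 to 33.2 when each library was left out in turn, the low value being without mutant replicate 2 and the high one without mutant replicate 1, and from 2.52 (lists of equal length) to 21.4 (peaks within 500 bp) under the other alternatives; it stayed above 0 in all of them. It was 6.51 points when 50% of the place had to be covered and 8.47 with only the peaks of total signal above the median of each list. The share at a 5′ end was 88.7 to 93.2%, and the proteasome count 6 to 7, with windows of 500 bp or 2 kb and with no upper limit on height. With a replicate block, added after seeing the data, the difference was -15.1 points for replicate 1 and 40.8 for replicate 2, 12.8 on average; the labels do not say that a number pairs libraries. The planned limma fit and its alternatives (replicate block, quantile normalization, no centring, total signal, leaving out libraries) were not run, because 0 regions had a peak in all 5 other libraries, and with at least 4 libraries 1 region, no tall place, was left. Motif shares with 1 window per gene were taken as an added alternative, and CACGTG was then in 15.6% of windows under tall peaks and 7.84% of all. Control replicates 2 and 3 have short lists of low peaks, which limits what absence there shows.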
